A study of Mus musculus with 9 samples.

Results

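The genes of collagens, laminins, nidogens and their close partners were examined in RNA of the mouse substantia nigra, as a reading of the matrix that vessels and meninges carry into a brain dissection. Members were all genes with a platform symbol of the form Col, Lam(a, b or c) or Nid followed by its chain numbers, together with Fn1, Dcn, Lum, Hspg2 and Sparc, that had at least 1 probe set naming that gene alone. This gave 56 genes with 91 probe sets, of 17097 genes with such a probe set and 45037 probe sets tested. Each gene was read from its brightest probe set over all 9 arrays. Nid2, Lama4, Lama5, Col6a6 and Col28a1 were among the genes not analysed here.

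All 9 arrays came from Swiss Webster mice that received daily intraperitoneal injections on school days from postnatal day 28 for 12 weeks, followed by 7 days without drug. The mice received saline (3 arrays), methylphenidate (MPH, a stimulant that blocks dopamine and noradrenaline uptake) labelled 1 mg/kg (3 arrays), or MPH labelled 10 mg/kg (3 arrays). Doses follow the labels as deposited. The gene tables of the study list changes of each labelled group under the other dose, and which is right could not be settled from the arrays. The labels do not say whether an array held the RNA of 1 mouse or of several, so that p-values measure the spread between these samples.

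In a basement membrane, laminins and type IV collagen form a pair of sheets that nidogen and the heparan sulfate proteoglycan perlecan (Hspg2) hold together. In the brain such sheets wrap endothelial cells and pericytes and lie under the astrocyte end feet at the pial surface. Fibrillar collagens, type VI collagen, fibronectin (Fn1) and the small proteoglycans decorin (Dcn) and lumican (Lum) belong to the interstitial matrix, which in the brain is made mainly by fibroblasts of the meninges and of the spaces around larger vessels. Neurons and astrocytes make a few members of their own, such as the transmembrane collagen Col25a1 and the matrix glycoprotein Sparc.

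Promoter sequence is shown for Col3a1 and Col6a1, the members that stood highest on a single array, and for Nid1, the member whose treated arrays all lay above the saline arrays at both doses. These are the 250 bases before each annotated start in the RefSeq table for GRCm38, written 5' to 3' on the strand of the gene, with matches on either strand to the TATA box (TATAAA), the CCAAT box and the GC box (GGGCGG) in capitals. Col3a1 lies on the plus strand at chr1:45311288-45311537, Col6a1 on the minus strand at chr10:76726045-76726294, and Nid1 on the plus strand at chr13:13437352-13437601.
Col3a1: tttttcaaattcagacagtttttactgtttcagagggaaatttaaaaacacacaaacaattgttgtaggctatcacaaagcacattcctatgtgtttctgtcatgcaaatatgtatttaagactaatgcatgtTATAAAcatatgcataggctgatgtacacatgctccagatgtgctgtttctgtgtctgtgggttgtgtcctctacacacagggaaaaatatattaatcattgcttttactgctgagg
Col6a1: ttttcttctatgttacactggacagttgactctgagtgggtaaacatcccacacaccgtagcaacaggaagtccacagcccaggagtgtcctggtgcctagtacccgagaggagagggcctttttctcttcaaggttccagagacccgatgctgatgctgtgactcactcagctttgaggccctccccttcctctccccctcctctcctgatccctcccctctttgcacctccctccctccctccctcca
Nid1: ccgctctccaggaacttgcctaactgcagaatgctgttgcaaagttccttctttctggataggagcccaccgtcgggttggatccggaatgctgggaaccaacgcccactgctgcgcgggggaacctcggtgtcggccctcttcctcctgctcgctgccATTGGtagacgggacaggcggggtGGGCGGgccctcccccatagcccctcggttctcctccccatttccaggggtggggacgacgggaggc
The window of Col3a1, the chain of type III collagen, held TATAAA at bases -117 to -112 from the start and had a GC content of 35.2%. The window of Col6a1, a chain of type VI collagen, held none of these motifs at a GC content of 56%. The window of Nid1 held CCAAT on the minus strand (ATTGG as printed) at bases -91 to -87 and GGGCGG at bases -67 to -62, at a GC content of 64.4%. In the table, 40 of the 56 members had 44 windows. TATAAA was found in 11.4% of them and in 12.4% of all 32851 windows, CCAAT in 34.1% and 33.8%, and GGGCGG in 54.5% and 32.7%. A match is a match of letters and no evidence of a bound factor. Col4a1 and Col4a2, the main type IV chains of vessels, are transcribed away from each other on chromosome 8, and their windows in the table, which are 300 bases long and run past the start, shared 78 bases.

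No member passed the test in any of the 3 comparisons. With limma and the replicate number as a block, 0 of 56 members had an adjusted p of 0.05 or less in each comparison, against 0% of all probe sets. The smallest adjusted p among the members was 0.378 for 1 mg/kg against saline, 0.351 for 10 mg/kg against saline and 0.774 for 10 mg/kg against 1 mg/kg. Single arrays stood apart where the groups did not. The array labelled 10 mg/kg replicate 1 was the highest of the 9 arrays for 30 of the 56 members, whereas it was highest for 13.4% of all probe sets. The saline replicate 1 array was the lowest for 18 members, against 10.1% of all probe sets. On the 10 mg/kg replicate 1 array 20 members exceeded the mean of the other 8 arrays by more than 0.5 on the log2 scale, and 9 by more than 1. The median excess on that array was 0.21 over the members and -0.02 over all genes. Of 15 members with a range over 1 between the highest and the lowest array, 4 (Col3a1, Col5a2, Col6a2 and Dcn) kept a range over 1 without that array. The shares of all genes past these limits of excess and range were not counted.

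**Figure D1:**
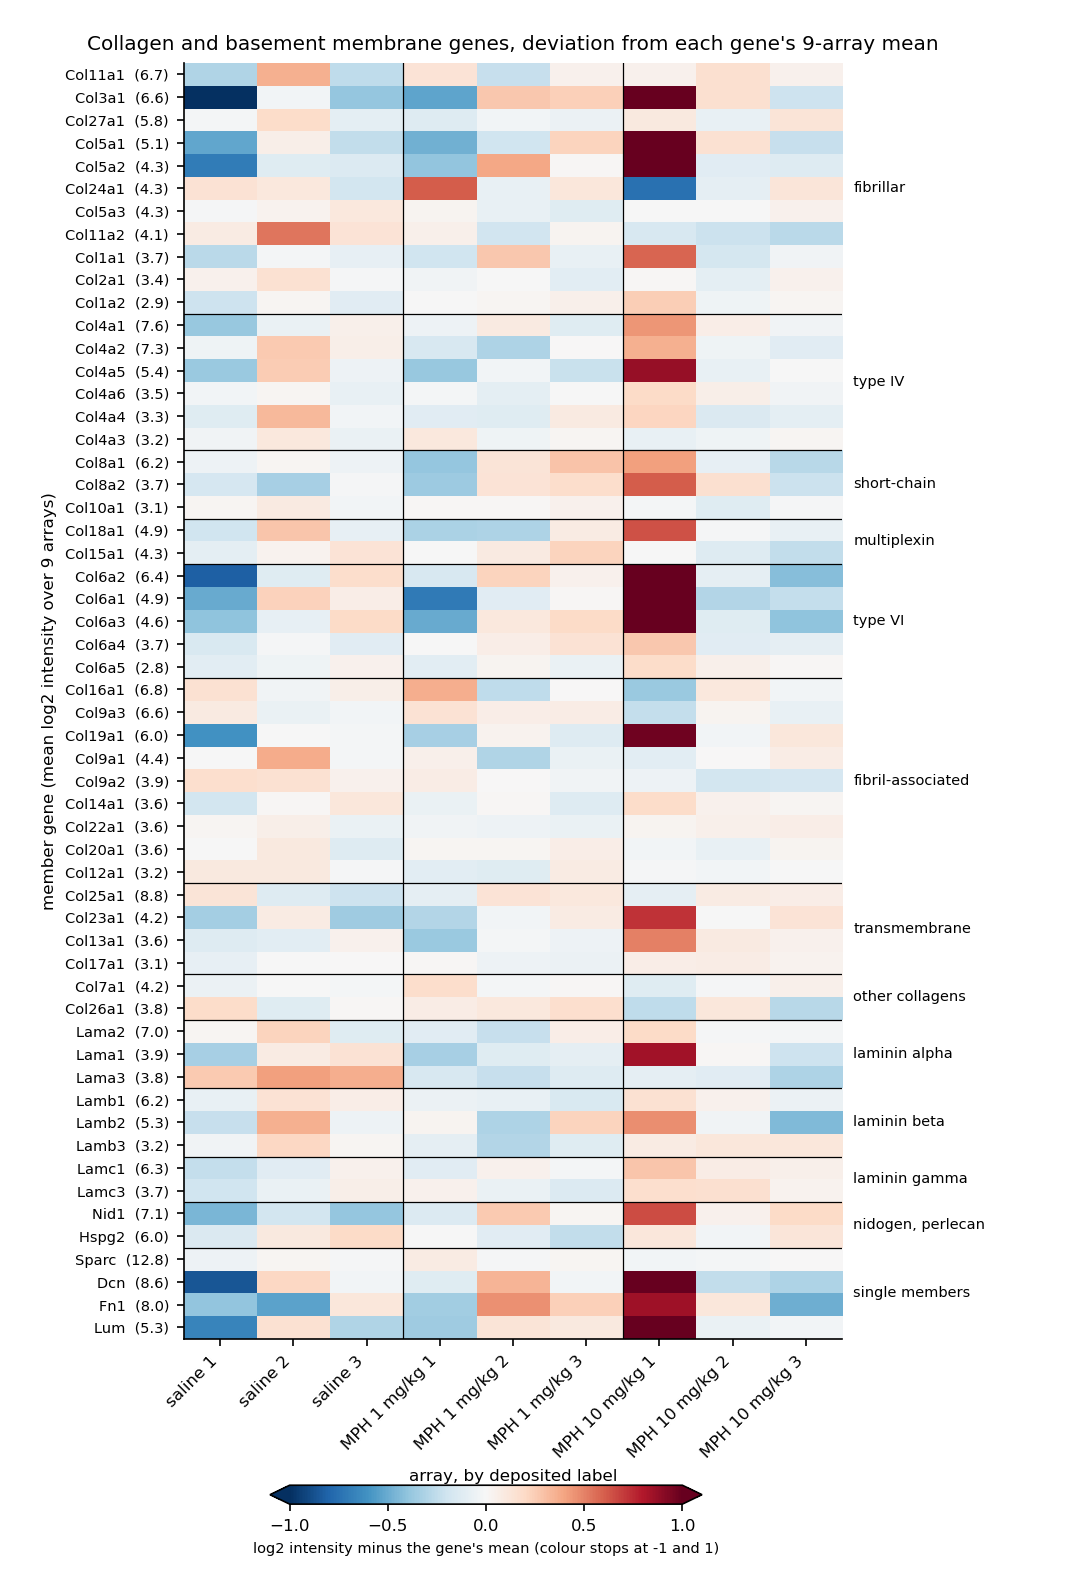
Deviation of each of the 56 members (rows, grouped by role, with the mean log2 intensity in parentheses) from its own mean over the 9 arrays (columns, by deposited label), in log2 units, with red above and blue below the mean. The red column at 10 mg/kg replicate 1 is darkest in Col3a1, Col5a1, Col5a2, Col6a1, Col6a2, Col6a3, Col19a1, Dcn and Lum, each more than 1 above the mean of its other 8 arrays, and the Sparc row is near white on every array.

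The fibrillar collagens, which make the fibres of connective tissue, were measured by 11 genes. Col3a1 (type III collagen, found in vessel walls and meninges) had log2 intensities of 5.52, 6.61 and 6.25 in saline replicates 1 to 3, 6.11, 6.91 and 6.87 at 1 mg/kg, and 8.23, 6.80 and 6.43 at 10 mg/kg. The 3 groups overlapped, and 1 array at 10 mg/kg stood above all the others, by 1.79 over the mean of the other 8. The difference from saline was 0.50 ± 0.50 (SE) at 1 mg/kg (limma, adjusted p = 0.759) and 1.02 ± 0.50 at 10 mg/kg (limma, adjusted p = 0.553), and the latter was 0.20 without the 10 mg/kg replicate 1 array. Here and below, differences without an array come from limma with the replicate block on the other 8 arrays. That fit is unbalanced, so its differences are not plain differences between the means of the remaining arrays. Col5a1 and Col5a2, the type V chains that set the width of type I fibres, had the same high array and were picked here after their values were seen. Col5a1 read 4.58, 5.16 and 4.86 in saline, 4.62, 4.90 and 5.32 at 1 mg/kg, and 6.33, 5.25 and 4.87 at 10 mg/kg. Its difference at 10 mg/kg was 0.62 ± 0.37 with all arrays and 0.04 without the high array. Col5a2 differed by 0.64 ± 0.39 at 10 mg/kg with all arrays and by 0.00 without it.

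The type I chains, the main collagen of skin, bone and dura, stood close to or within the range of the negative controls. That range is taken here as log2 intensities up to 3.59, which held 22 of 23 non-specific control probe sets, and 14 of the 56 members had a mean within it. Col1a1 read 3.40, 3.65 and 3.59 in saline, 3.47, 3.94 and 3.60 at 1 mg/kg, and 4.25, 3.50 and 3.64 at 10 mg/kg, so that 10 mg/kg replicate 1 was highest and 1 mg/kg replicate 2 next. Col1a2 lay between 2.66 and 3.11 on all 9 arrays, within the control range.

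Other fibrillar genes did not share the high array. Col11a1, a type XI chain, read between 6.35 and 7.01, with differences of 0.05 ± 0.18 and 0.15 ± 0.18 at 1 and 10 mg/kg. Col11a2, another type XI chain, read 4.22, 4.68 and 4.28 in saline, 4.19, 3.95 and 4.17 at 1 mg/kg, and 3.98, 3.93 and 3.87 at 10 mg/kg. All 6 MPH arrays lay below the 3 saline arrays. The difference was -0.29 ± 0.13 at 1 mg/kg (limma, adjusted p = 0.514) and -0.47 ± 0.13 at 10 mg/kg (limma, adjusted p = 0.424). Col24a1, picked after its values were seen, went the other way on the same array, at 3.55 on 10 mg/kg replicate 1 and between 4.12 and 4.90 on the other 8.

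In type VI collagen, a beaded filament at the border between basement membrane and interstitial matrix, all 5 measured chains were highest on the 10 mg/kg replicate 1 array, by a median of 1.14 over the mean of the other 8. The excess was 0.31 for Col6a4 and 0.21 for Col6a5, which lay within the control range on every array, at 2.72 to 3.02. Col6a1 read 4.37, 5.11 and 4.94 in saline, 4.17, 4.77 and 4.89 at 1 mg/kg, and 6.44, 4.58 and 4.64 at 10 mg/kg. Col6a2 read 5.63, 6.32 and 6.61 in saline, 6.28, 6.67 and 6.48 at 1 mg/kg, and 7.60, 6.35 and 6.02 at 10 mg/kg. Without the high array Col6a1 read lower at 10 mg/kg than in saline replicates 2 and 3, while Col6a2 overlapped them, and with Col6a3 both are given here because of that array. Their differences from saline at 10 mg/kg were 0.41 ± 0.50 for Col6a1, 0.47 ± 0.42 for Col6a2 and 0.26 ± 0.38 for Col6a3 with all arrays, and -0.41, -0.19 and -0.35 without it. Col6a4 read 3.73, 3.81 and 3.88 at 1 mg/kg, level with or above the highest saline array at 3.73, and differed from saline by 0.16 ± 0.12 (limma, adjusted p = 0.665).

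The single members of the interstitial matrix followed the same array. Decorin (Dcn), a collagen-binding proteoglycan of meningeal fibroblasts, read 7.79, 8.85 and 8.62 in saline, 8.52, 8.99 and 8.62 at 1 mg/kg, and 9.68, 8.40 and 8.34 at 10 mg/kg. Lumican (Lum), its relative, read 4.66, 5.47 and 5.01 in saline, 4.96, 5.45 and 5.42 at 1 mg/kg, and 6.35, 5.25 and 5.29 at 10 mg/kg. Fibronectin (Fn1), an adhesive glycoprotein of vessel walls and loose connective tissue, read 7.56, 7.42 and 8.07 in saline, 7.61, 8.41 and 8.19 at 1 mg/kg, and 8.80, 8.07 and 7.47 at 10 mg/kg. In all 3 genes the groups overlapped and the 10 mg/kg replicate 1 array was highest. Without it the differences at 10 mg/kg, from limma with the replicate block, were -0.26 for Dcn, 0.05 for Lum and -0.06 for Fn1. With all arrays they were 0.38, 0.58 and 0.43. The remaining 10 mg/kg readings of Dcn lay just below its saline mean of 8.42. Those of Lum lay above its saline mean of 5.05, and those of Fn1 on either side of its saline mean of 7.68. Sparc, a collagen-binding glycoprotein that astrocytes and endothelial cells make in quantity, lay between 12.74 and 12.87 on all 9 arrays, with differences of 0.04 ± 0.07 and -0.01 ± 0.07 from saline at 1 and 10 mg/kg.

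**Figure D2:**
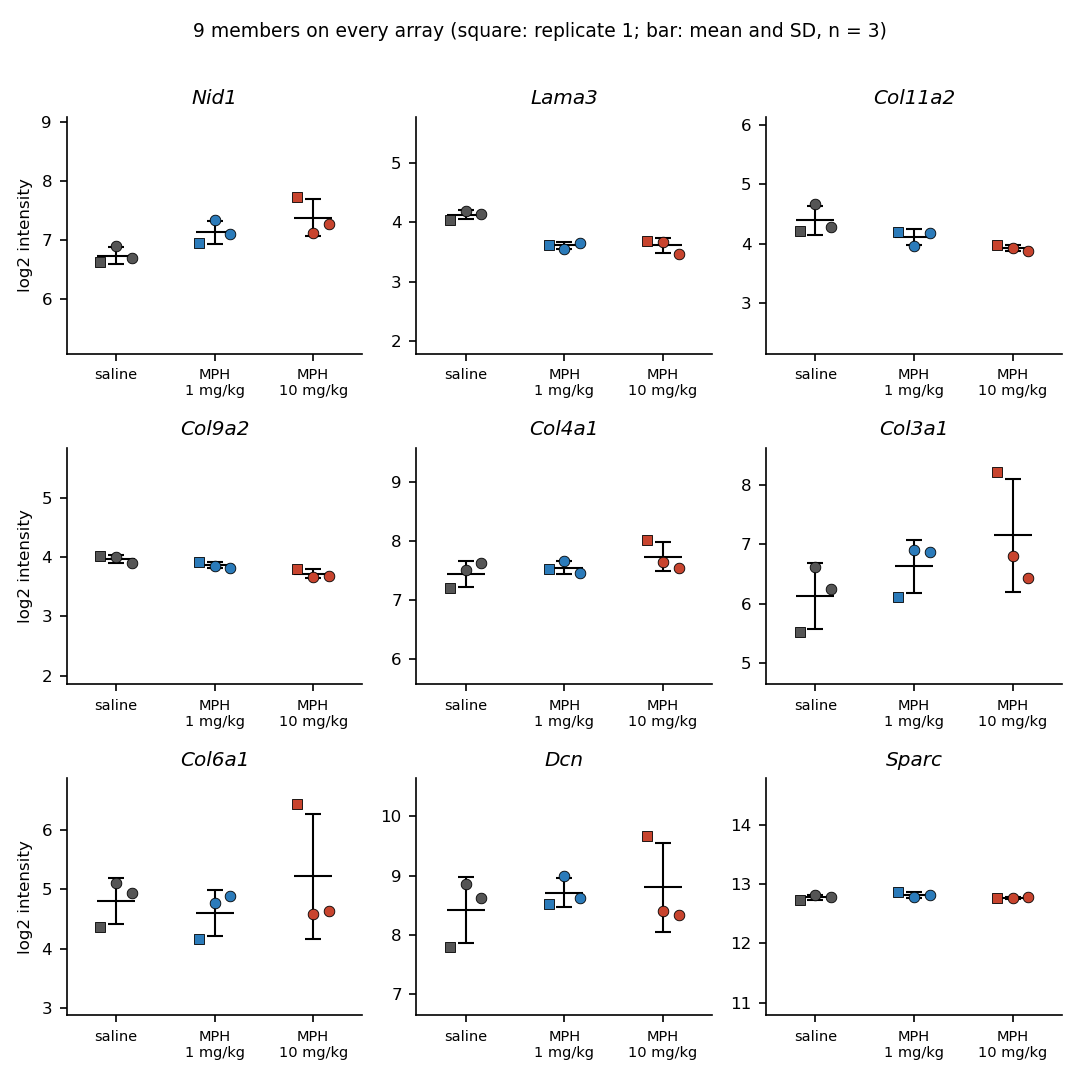
Log2 intensity of 9 members on every array, by group, with squares for replicate 1 and bars for the mean and SD (n = 3 arrays). Each panel spans 4 log2 units. Nid1 is higher and Lama3 and Col11a2 are lower on all 6 MPH arrays than on the saline arrays, while in Col3a1, Col6a1 and Dcn the square at 10 mg/kg stands alone, and Sparc is level.

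Of the 18 basement membrane members 11 were highest on the 10 mg/kg replicate 1 array, with a median excess over the mean of the other 8 arrays of 0.23 on the log2 scale, where it was 0.65 over the 19 interstitial members. Col4a1, which with Col4a2 forms the type IV trimer of all vessel basement membranes, read 7.19, 7.51 and 7.62 in saline, 7.52, 7.66 and 7.46 at 1 mg/kg, and 8.02, 7.64 and 7.54 at 10 mg/kg. Col4a2 read 7.24, 7.54 and 7.34 in saline, 7.12, 6.97 and 7.28 at 1 mg/kg, and 7.64, 7.24 and 7.17 at 10 mg/kg. The groups overlapped in both genes. Although their promoters lie back to back, at 1 mg/kg Col4a1 differed from saline by 0.11 ± 0.16 and Col4a2 by -0.25 ± 0.15, and at 10 mg/kg by 0.29 ± 0.16 and -0.02 ± 0.15, all without passing the test. Col4a5, another type IV chain, picked after its values were seen, read 6.29 on 10 mg/kg replicate 1 and between 5.03 and 5.67 on the other 8 arrays. Col18a1, whose C-terminal fragment is endostatin, read 4.69, 5.17 and 4.81 in saline, 4.57, 4.58 and 4.97 at 1 mg/kg, and 5.53, 4.88 and 4.81 at 10 mg/kg. Its relative Col15a1 lay between 4.03 and 4.50 on all arrays. The chains Col4a3, Col4a4 and Col4a6, known from kidney and other specialised membranes, had means within the control range.

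Nid1, which bridges the laminin and type IV collagen sheets, was the member with the clearest higher reading on the MPH arrays. It read 6.62, 6.90 and 6.70 in saline, 6.95, 7.34 and 7.10 at 1 mg/kg, and 7.73, 7.13 and 7.28 at 10 mg/kg. All 6 MPH arrays lay above the 3 saline arrays, and the highest was again 10 mg/kg replicate 1. The difference from saline was 0.39 ± 0.18 at 1 mg/kg, a 1.31-fold ratio (limma, adjusted p = 0.5), and 0.64 ± 0.18 at 10 mg/kg, a 1.56-fold ratio (limma, adjusted p = 0.424). Without the 10 mg/kg replicate 1 array the fitted difference at 10 mg/kg was 0.39, as at 1 mg/kg. An exact permutation test of the means, two-sided, gave p = 0.1 at each dose, the smallest that groups of 3 allow. A dimmer probe set of Nid1, at a mean of 3.68, differed by -0.09 ± 0.09 at 1 mg/kg and by 0.17 ± 0.09 at 10 mg/kg. Perlecan (Hspg2), the other linker, lay between 5.78 and 6.21 on all arrays and differed by -0.17 ± 0.12 and 0.02 ± 0.12.

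The laminin chains found in vessel and pial membranes differed in how far they followed the high array. Lama2, made by pericytes, fibroblasts and astrocytes, lay between 6.80 and 7.25, Lamb1 between 6.01 and 6.32, and Lamc1, the gamma chain of nearly all laminins, between 6.02 and 6.53. Lama1, a chain of the pial membrane, read 4.79 on 10 mg/kg replicate 1 and between 3.61 and 4.09 on the other 8 arrays. Lamb2, a beta chain of vessel and pial membranes, was also highest there, at 5.76 against 4.85 to 5.64. Lama1 and Lamb2 were picked after their values were seen, and their groups overlapped. Lamc1 read 6.53, 6.33 and 6.30 at 10 mg/kg against 6.02, 6.14 and 6.29 in saline, which did not overlap by a small margin, with a difference of 0.24 ± 0.11 (limma, adjusted p = 0.529). Lama3, a chain of epithelial laminins, was lower on all 6 MPH arrays. It read 4.04, 4.20 and 4.14 in saline, 3.62, 3.55 and 3.66 at 1 mg/kg, and 3.69, 3.67 and 3.47 at 10 mg/kg. The difference was -0.52 ± 0.09 at each dose, a 0.699-fold ratio (limma, adjusted p = 0.378 at 1 mg/kg and 0.351 at 10 mg/kg). Without the replicate block Lama3 was the only member to pass, with limma's adjusted p of 0.0498 at 1 mg/kg and 0.0415 at 10 mg/kg, where 0.12% and 0.255% of all probe sets passed. The study lists Lama3 at both doses from these same arrays, so its values are no independent evidence. The MPH readings lay at the edge of the control range, and the other probe set of Lama3, at a mean of 3.15, differed by -0.06 ± 0.07 and 0.01 ± 0.07. Lamb3, the epithelial partner of Lama3, lay within the control range between 2.95 and 3.45.

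The 19 members outside both matrices, Sparc among them, differed in how far they followed the high array. The 10 mg/kg replicate 1 array was highest for 6 of them, against 13.4% of all probe sets. Their median excess on it over the mean of the other 8 arrays was -0.02. Col25a1, a transmembrane collagen of neurons, lay between 8.61 and 8.96 with differences of 0.12 ± 0.12 and 0.09 ± 0.12. The fibril-associated Col16a1 lay between 6.44 and 7.17 and Col9a3, a type IX chain, between 6.39 and 6.78, and both were lowest on the 10 mg/kg replicate 1 array. Col19a1, a fibril-associated collagen also made by neurons, was highest there, at 6.96 against 5.38 to 6.09 on the other 8 arrays. Col23a1, a transmembrane collagen, read 3.86, 4.28 and 3.84 in saline, 3.90, 4.17 and 4.28 at 1 mg/kg, and 4.92, 4.19 and 4.33 at 10 mg/kg. Col9a2, another type IX chain, read between 3.89 and 4.02 in saline, 3.92, 3.85 and 3.82 at 1 mg/kg, and 3.80, 3.67 and 3.68 at 10 mg/kg. The 10 mg/kg and saline groups of Col9a2 did not overlap, at a difference of -0.26 ± 0.07 (limma, adjusted p = 0.424), and its level was near the control range.

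Counted over all members, readings with limma's unadjusted p at or under 0.05 were about as frequent as over the whole array or less. At 1 mg/kg against saline 0 members were higher and 2 (Lama3 and Lamb3) lower, where 4.53% and 5.77% of all probe sets were. At 10 mg/kg against saline 1 member (Nid1) was higher and 3 (Col11a2, Col9a2 and Lama3) lower, where 4.08% and 5.51% of all probe sets were. At 10 mg/kg against 1 mg/kg 2 members (Col13a1 and Lamb3, both with a mean within the control range) were higher and 0 lower, where 3% and 3.39% of all probe sets were. The 10 mg/kg readings of Col13a1 were 4.06 on replicate 1, above that range, and 3.64 and 3.60, at its upper edge of 3.59.

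Groups that did not overlap were counted in the same way. At 1 mg/kg 2 members (Col6a4 and Nid1) lay wholly above saline and 3 (Col11a2, Lama3 and Lamb3) wholly below, where 10.7% and 12.4% of all probe sets did. At 10 mg/kg 4 members (Col13a1, Col17a1, Lamc1 and Nid1) lay wholly above saline and 3 (Col11a2, Col9a2 and Lama3) wholly below, where 10.3% and 13.1% of all probe sets did. Between the doses 7 members (12.5%) lay wholly higher at 10 mg/kg and 3 (Col10a1, Col9a2 and Col9a3) wholly lower, where 8.72% and 9.44% of all probe sets did. Without the 10 mg/kg replicate 1 array 5 members (Col8a1, Col9a2, Col11a2, Col15a1 and Lama3) lay wholly below saline at 10 mg/kg and 7 wholly below 1 mg/kg, where 18.1% and 13.9% of all probe sets did. Both comparisons with saline share the saline arrays.

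The median difference over the 56 members was 0.02 at 1 mg/kg and 0.09 at 10 mg/kg against saline, and 0.10 between the doses, where the medians over all genes were -0.02, -0.02 and 0.00. Positive differences were found for 29, 36 and 42 members, where 48.6%, 47.7% and 49.7% of all probe sets had one. Of the 17097 genes, each read from its brightest probe set as the members were, 7478, 7522 and 8727 had one. Without the 10 mg/kg replicate 1 array the medians over the members were 0.02, -0.01 and -0.03. Without that array limma with the replicate block called 6 members (Col3a1, Col5a2, Col6a2, Col6a3, Col15a1 and Dcn) lower at 10 mg/kg than at 1 mg/kg. These had an unadjusted p at or under 0.05, as did 3.11% of all probe sets, and 0 were called higher, where 2.92% were. No fit left out both the block and that array, so how far these calls depend on the block was not tested. The remaining 10 mg/kg readings of Col3a1, 6.80 and 6.43, lay within its 1 mg/kg range of 6.11 to 6.91. Those of Col5a2, Col6a2 and Col6a3 also overlapped their 1 mg/kg readings. Those of Dcn, 8.40 and 8.34, and of Col15a1, 4.14 and 4.03, lay below all their 1 mg/kg readings. By the same unadjusted p without that array, 3 members (Col3a1, Col5a2 and Nid1) read higher and 2 (Col6a1 and Lama3) lower at 1 mg/kg than in saline, where 5.56% and 6.69% of all probe sets did. At 10 mg/kg against saline 1 (Nid1) read higher and 6 (Col11a2, Col15a1, Col6a1, Col6a3, Col9a2 and Lama3) lower, where 3.49% and 4.59% did.

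**Figure D3:**
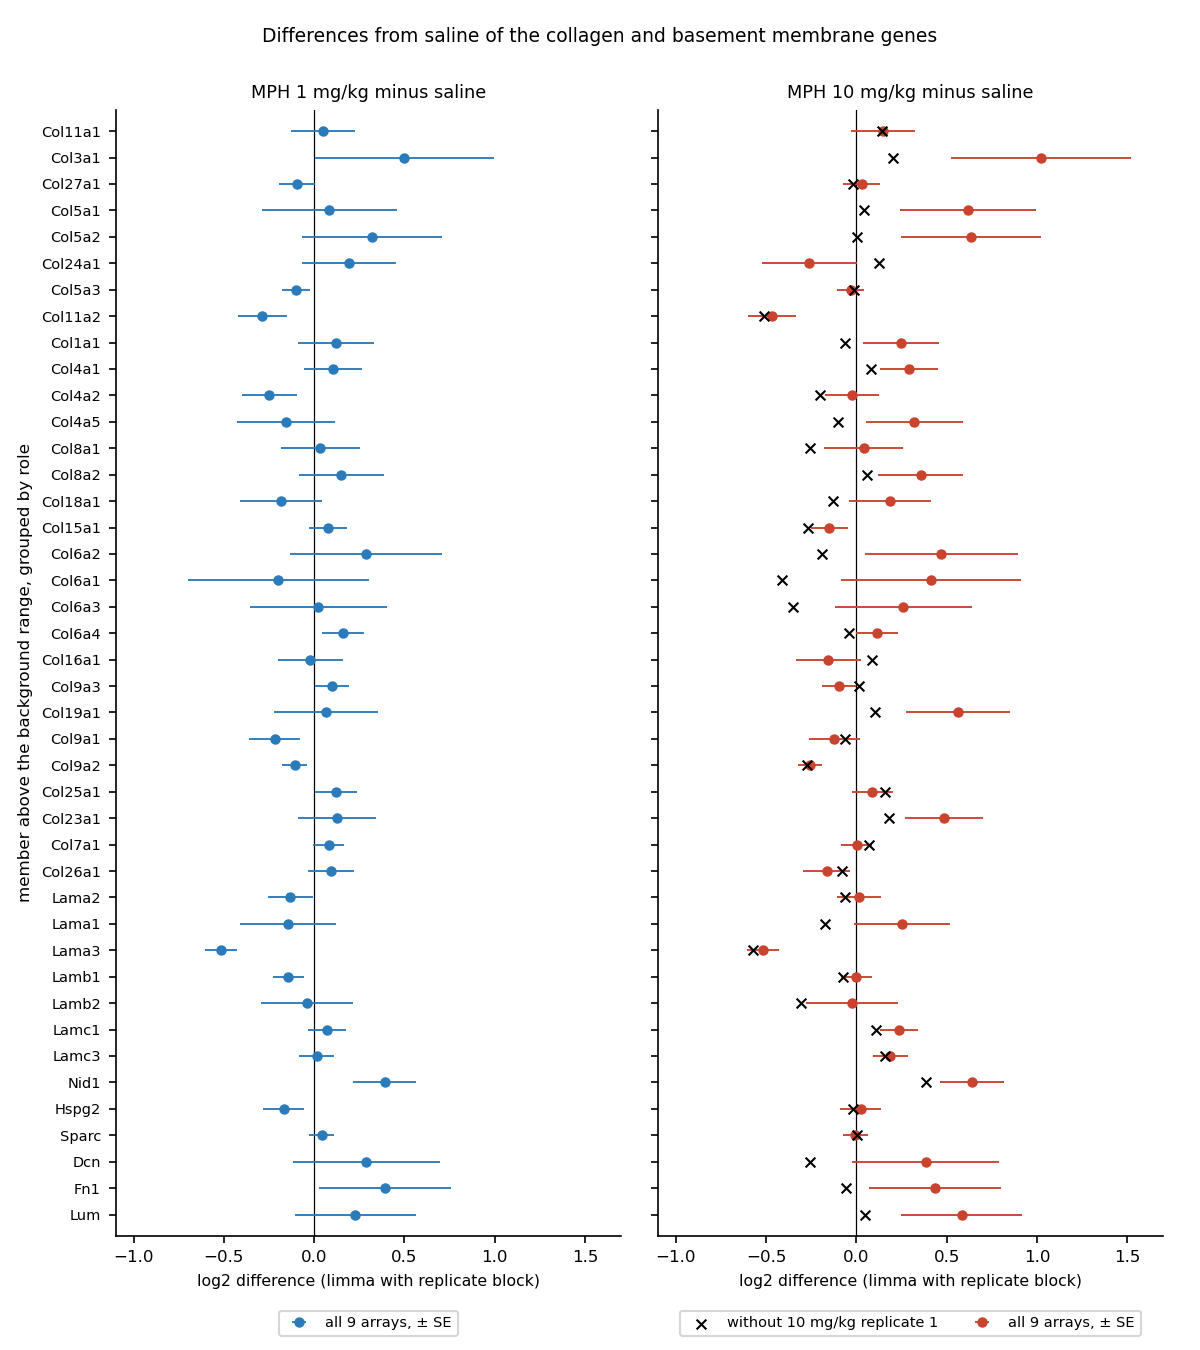
Log2 difference from saline of the 42 members above the control range, grouped by role, at 1 mg/kg (left) and 10 mg/kg (right), from limma with the replicate block, with bars of 1 SE. Crosses give the 10 mg/kg difference without replicate 1, which is 0.20 in place of 1.02 for Col3a1 and -0.41 in place of 0.41 for Col6a1, while Lama3 and Col11a2 move little.

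By compartment, the mean log2 level of the 19 interstitial members was 4.67, 5.08 and 4.97 in saline, 4.85, 5.10 and 5.08 at 1 mg/kg, and 5.62, 4.97 and 4.90 at 10 mg/kg. The 18 basement membrane members read 4.96, 5.25 and 5.13 in saline, 5.01, 5.01 and 5.08 at 1 mg/kg, and 5.42, 5.11 and 5.05 at 10 mg/kg. The 19 other members stayed between 4.95 and 5.12. Both matrix compartments were highest on 10 mg/kg replicate 1 and lowest on saline replicate 1, and 13 of the 19 interstitial members were highest on the former.

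Cell type markers moved on the same arrays. Of 20 markers of meningeal and perivascular fibroblasts 18 were measured, 3 of them within the control range. Their mean level was 5.18, 5.54 and 5.62 in saline, 5.38, 6.17 and 6.05 at 1 mg/kg, and 6.97, 5.96 and 5.59 at 10 mg/kg. The 10 mg/kg replicate 1 array was highest for 14 of the 18 and saline replicate 1 lowest for 13. Slc22a6, an organic anion transporter of meningeal fibroblasts, read 3.79, 4.23 and 4.31 in saline, 4.53, 4.90 and 4.95 at 1 mg/kg, and 6.09, 5.13 and 4.63 at 10 mg/kg. The part of meningeal tissue in the differences between groups was not tested, and in bulk tissue fewer cells of a type and less RNA per cell cannot be told apart.

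The mean levels of the vessel cell lists moved less, although single genes of them moved far on the same array. The 17 measured endothelial markers had mean levels of 7.09 to 7.21 in saline, 7.19 to 7.30 at 1 mg/kg and 7.13 to 7.33 at 10 mg/kg, and the 11 measured mural cell markers of 5.61 to 5.78, 5.78 to 5.89 and 5.65 to 6.05. Both lists were highest on 10 mg/kg replicate 1 and lowest on saline replicate 1. Acta2, the actin of smooth muscle, read 8.47, 9.09 and 9.28 in saline, 9.31, 9.85 and 10.05 at 1 mg/kg, and 10.94, 9.76 and 8.92 at 10 mg/kg. On 10 mg/kg replicate 1 it exceeded the mean of the other 8 arrays by 1.60, Myh11 (smooth muscle myosin) by 1.49, Cnn1 (calponin of smooth muscle) by 1.03 and Vwf (von Willebrand factor of endothelium) by 1.00. Those 4 were picked after their values were seen. The other 8 mural markers, which include the pericyte genes Pdgfrb and Rgs5, deviated on that array by -0.39 to 0.12. Cldn5, the tight junction protein of brain endothelium, differed from saline by 0.35 ± 0.08 at 1 mg/kg (limma, adjusted p = 0.378) and by 0.25 ± 0.08 at 10 mg/kg (limma, adjusted p = 0.449). The 10 mg/kg replicate 1 array also read highest for cortex and hippocampus markers, at a mean level of 6.39 against 5.14 to 5.60, and lowest for oligodendrocyte markers, at 9.91 against 10.17 to 10.67. Dopamine neuron markers, which define the dissected region, had mean levels of 8.54 to 8.81 in saline, 8.07 to 8.15 at 1 mg/kg and 8.13 to 8.24 at 10 mg/kg. The 2 measured raphe markers had mean levels of 4.16 to 6.95 in saline, 3.18 to 3.86 at 1 mg/kg and 3.44 to 4.76 at 10 mg/kg. The 6 thalamus markers had mean levels of 6.89 to 8.25, 8.504 to 8.88 and 7.34 to 8.53. The Actb probe sets, a sign of RNA integrity, read 3' over 5' by 0.882 to 0.934 in saline, 1.04 to 1.19 at 1 mg/kg and 1.03 to 1.12 at 10 mg/kg, and those of Gapdh overlapped between the groups. The part of these in the members' values was not tested.

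**Figure D4:**
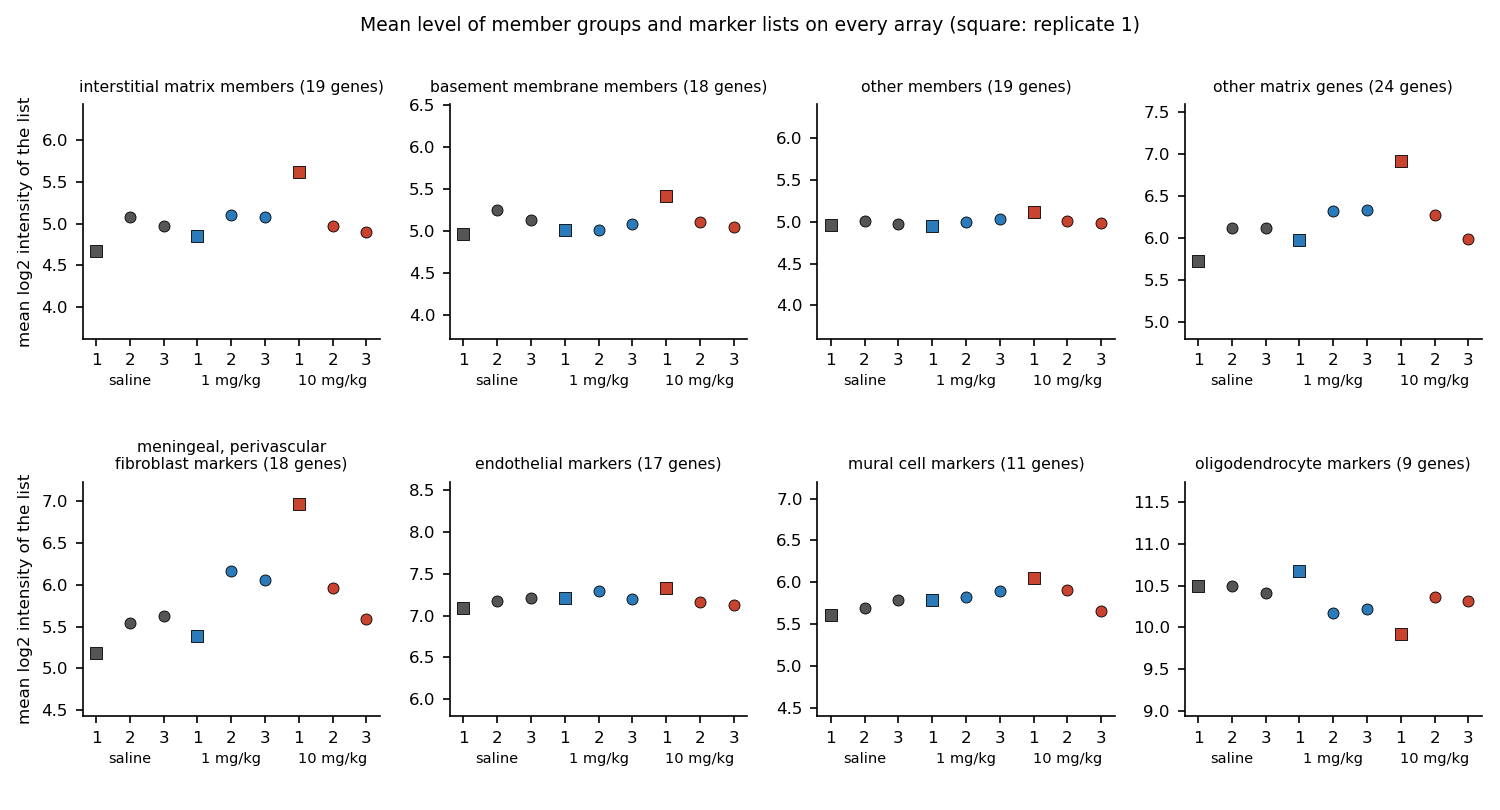
Mean log2 intensity of 3 member groups and 5 gene lists on each array, in the order saline, 1 mg/kg and 10 mg/kg, with squares for replicate 1 and every panel spanning 2.8 log2 units. The interstitial members, other matrix genes and meningeal markers share a high square at 10 mg/kg and a low square in saline, and the endothelial and mural list means span less, with the same arrays at their extremes.

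Genes that make, hold or cut the matrix were read from lists set by role. Of 24 other matrix genes measured, 2 were higher and 1 lower at 1 mg/kg with an unadjusted p at or under 0.05, and 4 were higher and 0 lower at 10 mg/kg, while 19 were highest on 10 mg/kg replicate 1. The shares of all probe sets were 4.53% higher and 5.77% lower at 1 mg/kg, and 4.08% and 5.51% at 10 mg/kg. Without that array 5 of the 24 were higher and 2 lower at 1 mg/kg, and 2 were higher and 2 lower at 10 mg/kg, where the shares of all probe sets were 5.56%, 6.69%, 3.49% and 4.59%. Fbln5, an elastic fibre protein, read 5.78, 6.05 and 6.36 in saline, 6.64, 6.88 and 6.77 at 1 mg/kg, and 7.14, 6.71 and 6.32 at 10 mg/kg. Its 1 mg/kg arrays lay wholly above saline, at a difference of 0.70 ± 0.23 (limma, adjusted p = 0.418). Of 22 enzymes that modify or fold collagen, 0 were higher and 2 (P4hb and Plod3) lower at 1 mg/kg, and 1 (Lox) was higher at 10 mg/kg. Lox, which cross-links collagen and elastin, read 3.62, 3.92 and 3.98 in saline, 3.83, 4.27 and 4.29 at 1 mg/kg, and 5.00, 4.39 and 4.18 at 10 mg/kg, with differences of 0.29 ± 0.23 and 0.68 ± 0.23. Of 14 collagen and laminin receptors 0 were called in either direction at either dose, and Itgb1, the shared beta chain of these integrins, lay between 6.81 and 7.17. Of 14 matrix metalloproteinases and inhibitors, 1 (Mmp24) was higher and 1 (Mmp2) lower at 1 mg/kg, and 1 (Timp1) was higher at 10 mg/kg. Without the 10 mg/kg replicate 1 array the enzymes, receptors and proteinases gave 0 to 2 genes a list in either direction at either dose. None of the genes of these 4 lists passed limma's adjusted p of 0.05, with or without the block.

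Several probe sets of a gene did not always move together. Of the 28 members with more than 1 probe set, 13 had probe sets of opposite sign at 1 mg/kg against saline, 9 at 10 mg/kg against saline and 10 between the doses. For Col11a1 the second probe set, at a mean of 6.58, differed by -0.41 ± 0.16 at 1 mg/kg, where the brighter one gave 0.05 ± 0.18.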

How the data were processed

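Substantia nigra RNA was measured on 9 Affymetrix HT MG-430 PM arrays. The authors deposited log2 intensities from Robust Multichip Average, a method that subtracts background, makes the intensity distributions of the arrays equal and combines the probes of a set, so that a shift common to most genes is removed. ComBat is named in the methods for the 3 replicates. Whether it entered the deposited values is not given in the sources used here. Array medians lay between 4.49 and 4.53. After 104 controls were left out of 45141 probe sets, 28898 named a single gene in the platform annotation, 551 several and 15588 none. All 56 members matched RefSeq by identifier, with 0 symbols changed.

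limma 3.58.1 (R 4.3.3) was fitted to all 45037 probe sets, two-sided, with terms for group and for replicate number, the latter because the methods treat replicates as batches. The p-values were adjusted by Benjamini and Hochberg, at 0.05. The script was tested on simulated data with known changes. These had independent noise, no replicate effect and no outlying array, so the test checked the code and not its power on these arrays. With 3 arrays a group, the number of arrays limits the precision. The members, lists, tests and alternatives were chosen with earlier results of these data known. Members named were Col1a1, Col1a2, Col3a1, Col4a1, Col4a2, Col18a1, Nid1, Hspg2, Lama3, Fn1, Dcn, Lum and Sparc, the 10 brightest, and up to 6 per direction with the smallest p against saline at each dose. Of each other list up to 2 genes with the smallest p per comparison could be named. Members and other genes named outside this rule, including those behind a count, were chosen after their values were seen. The alternatives dropped the replicate term, kept only the groups compared, repeated the quantile normalization, centred the arrays, kept the brighter probe sets, let the variance follow intensity (trend and robust options), averaged the probe sets of a gene, or left out each array. The count of groups that do not overlap without the array labelled 10 mg/kg replicate 1 was added after the data were seen.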

Additional observations from a re-analysis of the deposited data

How the results depend on the processing

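Same-numbered arrays did not deviate together, with correlations of their deviations from the group means between -0.132 and -0.626, so the numbers were not shown to pair the samples. Whether the deposited values include ComBat over the replicates, which can itself set such correlations below 0, is not given in the sources used here. Without the replicate block 54 probe sets passed the adjusted p at 1 mg/kg and 115 at 10 mg/kg against saline, with 1 member (Lama3) in each, and limma's trend and robust options passed 2 and 1 probe sets. Members at an unadjusted p up to 0.05 without the block numbered 1 higher at 1 mg/kg, 4 higher at 10 mg/kg and 4 lower at 10 than at 1 mg/kg. With only the groups compared in the fit 3 were higher and 1 lower at 1 mg/kg, and 1 was higher between the doses. With the trend and robust options 1 was higher at 1 mg/kg and 2 at 10 mg/kg. Among the brighter probe sets only, which hold fewer members, 0 were lower at either dose and 0 higher between the doses, and the median at 10 mg/kg was 0.21. Between the doses a second quantile normalization gave 1 higher and 1 lower, centring 1 higher and 2 lower, and averaging the probe sets of each gene 1 lower. Averaging also gave 2 higher at 10 mg/kg, and 1 member wholly above and 5 wholly below saline at 1 mg/kg. The causes of these changes were not tested. Leaving out each array gave 0 to 1 probe sets past the adjusted p at each dose (1 without saline replicate 2) and 0 between the doses, and 0 members. At an unadjusted p up to 0.05 it gave 0 to 3 members higher and 1 to 5 lower at 1 mg/kg, 1 to 7 higher and 3 to 6 lower at 10 mg/kg, and 0 to 6 higher and 0 to 6 lower between the doses. The extremes came without saline replicate 1 (5 lower at 1 mg/kg), 10 mg/kg replicate 2 or 3 (7 higher at 10 mg/kg each) and 10 mg/kg replicate 1. Apart from the fit without 10 mg/kg replicate 1, shares of all probe sets at the unadjusted p or without overlap are not given for these alternatives. Those member counts therefore cannot be set against the whole array. The median ranged from -0.079 to 0.048 at 1 mg/kg, -0.013 to 0.14 at 10 mg/kg and -0.025 to 0.18 between the doses. Single genes turned sign on averaging their probe sets (Col11a1 -0.18 at 1 mg/kg, and Col25a1 -0.049, Col6a4 -0.018 and Lamb1 0.026 at 10 mg/kg), a second quantile normalization (Sparc 0.0144 and Lamb1 0.00339 at 10 mg/kg) and centring (Lama2 -0.00107 at 10 mg/kg). With single arrays left out, log2 differences from saline that crossed 0 ranged at 1 mg/kg for Col1a1 -0.0621 to 0.30, Col4a1 -0.0824 to 0.27, Col18a1 -0.40 to 0.0376, Dcn -0.19 to 0.54, Lum -0.0692 to 0.49, Lama2 -0.27 to 0.00918, Col16a1 -0.23 to 0.15, Col11a1 -0.0992 to 0.29, Col23a1 -0.0278 to 0.33, Lamc1 -0.0104 to 0.16, Col19a1 -0.24 to 0.22, Lamc3 -0.0831 to 0.12, Col26a1 -0.0394 to 0.21 and Col10a1 -0.0455 to 0.0437, and at 10 mg/kg for Col1a1 -0.0642 to 0.49, Col4a2 -0.20 to 0.13, Col18a1 -0.13 to 0.41, Hspg2 -0.11 to 0.11, Fn1 -0.0554 to 0.88, Dcn -0.26 to 0.76, Sparc -0.0353 to 0.0196, Col25a1 -0.00355 to 0.25, Lama2 -0.0889 to 0.15, Col16a1 -0.36 to 0.0874, Col11a1 -0.00147 to 0.39, Col6a4 -0.0426 to 0.21, Col9a3 -0.18 to 0.0145, Lamb3 -0.0255 to 0.14 and Lamb1 -0.0949 to 0.04999. Nid1, Lama3, Col11a2 and Col9a2 kept their sign under every alternative run at both doses. Their groups did not overlap at 1 or both doses, so a kept sign with an array left out was largely fixed in advance. It was also not particular to them, since 31 of the 60 values followed, by member and dose, had no reversal.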
